A study of Mus musculus with 4 samples.

Results

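The widest stretches of acetylated chromatin were taken from a list of peaks of H3K27ac, an acetylation mark on histone H3, in primary progenitor cells of mouse salivary gland epithelium; the assay was chromatin immunoprecipitation followed by sequencing of the recovered DNA (ChIP-seq). The peaks were selected on their width alone, end minus start of 2000 bases or more, which 502 of the 183757 H3K27ac peaks did (0.273%). These wide peaks covered 1.38 Mb, or 2.88% of the 48.0 Mb under all H3K27ac peaks. The series has 4 libraries in 4 groups of 1: a ChIP for H3K27ac and 1 for p63 (monoclonal antibody 4A4), with an input for each, all from the labelled salivary gland cells of adult mice aged 12 weeks that carry wild-type p63. The labels give neither strain nor sex, nor how many animals or cultures stand behind a library. Each of the 2 peak lists sets 1 ChIP library against 1 input, and the p63 list holds 4130 peaks. Since peaks carry only a chromosome, a start and an end, the depth is unknown and the labelled cell type could not be checked against marker genes. Regions are given on mm9 with starts counted from 1, and no gene is assigned to them because no mm9 annotation was used.

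H3K27ac marks nucleosomes of active promoters and enhancers, and most single marked elements are short. Long or densely packed acetylated stretches, when stitched together, are often described as super-enhancers and are known for lying near genes that give a cell its identity. The transcription factor p63, a relative of p53, marks basal cells of stratified and glandular epithelia, where it binds many enhancers and helps to maintain progenitor cells.

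Because width chose the peaks, their widths are a description only. The median was 2477 bases (quartiles 2166.5 and 3038.75), 131 peaks reached 3000 bases, 35 reached 4000 and 15 reached 5000. Width thinned out smoothly at the threshold: 77 peaks measured from 2000 to under 2100 bases, and 109 peaks fell short by being 1900 to under 2000 bases wide. Just inside the threshold stood peaks of 2000 bases (chromosome 10:67701003-67703002), 2001 bases (chromosome 5:31899266-31901266), 2003 bases (chromosome 10:59362633-59364635) and 2004 bases (chromosome 6:50343614-50345617 and chromosome 16:26369909-26371912). Just outside it stood peaks of 1996 bases (chromosome 9:123123161-123125156 and chromosome 11:86404497-86406492), 1994 bases (chromosome 13:52069917-52071910 and chromosome 9:66890165-66892158) and 1992 bases (chromosome 11:74536423-74538414). The peak of 2003 bases shared 68 bases with a p63 peak whose midpoint lay outside it. None of the 5 just outside the threshold shared a base with p63. Wide peaks also stood early in the deposited list, with 121 of them among the first 500 rows, 435 among the first 5000 and the last at row 23067 of 183757. Peaks of 1000 to under 2000 bases stood early too: 56.5% of them were among the first 5000 rows, against 86.7% of the wide peaks. No ranking value was given with the list.

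The 10 widest peaks differed in their surroundings. Chromosome 13:31898652-31909700, at 11049 bases the widest, had 11 other H3K27ac peaks within 10 kb, and these covered 3221 bases of its left and 3081 bases of its right 10 kb. At chromosome 11:18912033-18920512 (8480 bases) the left and right flanks were covered over 4730 and 4929 bases. Both of these peaks thus had acetylation that was about equally dense on either side. By contrast, chromosome 15:74784450-74791872 (7423 bases) had sparser flanks, with 461 and 1768 covered bases on its left and right and 8 other H3K27ac peaks within 10 kb. Chromosome 4:88582526-88589599 (7074 bases) had 7286 covered bases on the left and 4782 on the right. Coverage was uneven at chromosome 9:106270322-106277180 (6859 bases, 1589 left and 7227 right) and at chromosome 12:8778212-8785062 (6851 bases, 2589 left and 9286 right), each with acetylation mostly on the right. The right flank of this chromosome 12 peak includes another of the 10 widest, chromosome 12:8785182-8790962 (5781 bases), which begins after a gap of 119 bases. The remaining ones, chromosome 13:40822922-40829235 (6314 bases), chromosome 17:71194280-71200527 (6248 bases) and chromosome 8:113313211-113318877 (5667 bases), had 16, 14 and 23 other H3K27ac peaks within 10 kb. Of the 10, the peaks on chromosome 9 and at chromosome 12:8785182-8790962 held p63. The first had a p63 peak of its own near its middle, at 106273487-106273737, and the second had a pair of them, at 8789026-8789186 and 8789431-8789640.

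Wide peaks were found on all 19 autosomes and, at 2 places, on chromosome X. Chromosome 11 carried 55 wide peaks, or 0.463 per Mb between its first and last peak (exact Poisson 95% interval 0.349 to 0.603), and chromosome 7 carried 47, or 0.315 per Mb (interval 0.231 to 0.418). The 19 autosomes together carried 500, or 0.208 per Mb, with a mean over autosomes of 0.212 ± 0.0933 (SD across 19 autosomes). Chromosome 18 had 6 (0.0686 per Mb, interval 0.0252 to 0.149) and chromosome 14 had 11 (0.0946 per Mb, interval 0.0472 to 0.169). Part of this spread followed the number of H3K27ac peaks, so the same counts were set against it. Per 1000 H3K27ac peaks, chromosome 11 had 4.42 wide ones (Wilson 95% interval 3.40 to 5.75), chromosome 7 had 4.07 (interval 3.07 to 5.41) and chromosome 18 had 1.01 (interval 0.463 to 2.20), against 2.80 for all autosomes. The intervals of chromosomes 7 and 11 lie above the autosomal value and those of chromosomes 3, 14 and 18 below it, whereas those of the other 14 autosomes include it.

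On chromosome X, 2 of 4990 H3K27ac peaks were wide, which is 0.401 per 1000 (interval 0.110 to 1.46), against 2.80 per 1000 on the autosomes (interval 2.56 to 3.05). The pair lies at chromosome X:12857604-12859837 (2234 bases) and chromosome X:96331468-96333985 (2518 bases), 242 and 78.0 kb from the nearest p63 peak. Wide peaks were thus scarcer on X than its H3K27ac peak number alone would give at the autosomal rate. These intervals cover counting error only and treat peaks as independent.

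**Figure D1:**
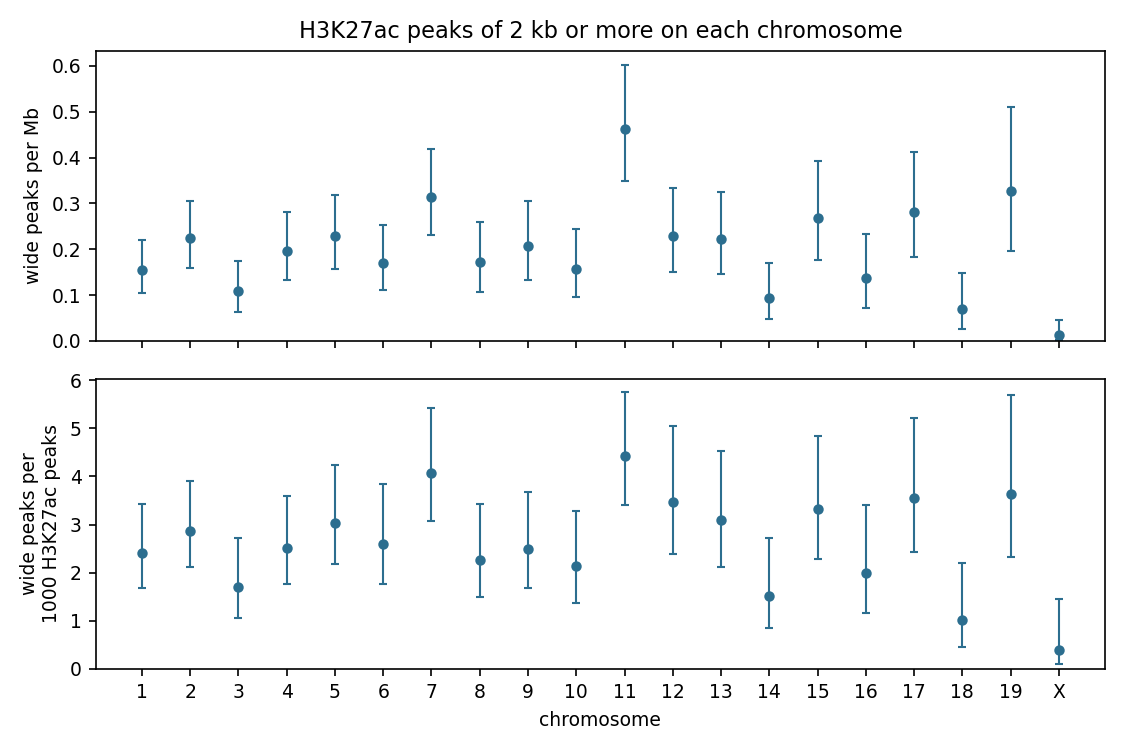
Wide H3K27ac peaks on each chromosome, per Mb of the span from first to last peak (upper panel, exact Poisson 95% intervals) and per 1000 H3K27ac peaks (lower panel, Wilson 95% intervals). Chromosome 11 is highest in both panels (0.463 per Mb, 4.42 per 1000) and chromosome X lowest (0.401 per 1000).

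Wide peaks had further acetylation nearby, but not always much of it or on both sides. All 502 had another H3K27ac peak within 10 kb, edge to edge, against 82.8% of all 183757 H3K27ac peaks and 98.8% of the 3011 peaks of 1000 to under 2000 bases, the next width class. The median number of such neighbours was 10 (quartiles 6 and 13.75) for wide peaks, 6 for the next class and 2 for all H3K27ac peaks. Other H3K27ac peaks covered a median of 20.6% of the 10 kb on either side (quartiles 9.67 and 38.1%), against 10.4% for the next class and 2.58% for all peaks. Flank coverage of wide peaks was spread over nearly the whole range, from 0.75 to 88.2%.

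The neighbours lay close by, and their median width was above that of the whole list. Of the 4268 distinct H3K27ac peaks within 10 kb of a wide peak, the wide ones near each other included, 3786 (88.7%) were under 1000 bases, against 98.1% of all H3K27ac peaks. The median width of these neighbours was 289 bases (quartiles 192 and 557), against 191 for all H3K27ac peaks. A neighbour lay within 200 bases of 340 wide peaks (67.7%, Wilson 95% interval 63.5 to 71.7%), and within 200 bases on both sides of 108 (21.5%, interval 18.1 to 25.3%). In the next class the same shares were 55.4% and 12.2%. No gap in the whole H3K27ac list is shorter than 52 bases, and the median gap from a wide peak to its nearer neighbour was 136 bases. Wide peaks therefore often ended at a short gap, with called acetylation going on beyond it.

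The most crowded wide peak was chromosome 12:77657854-77660046, 2193 bases wide, with 25 other H3K27ac peaks within 10 kb. Next came chromosome 8:113313211-113318877 with 23, followed by 4 with 22 each, at chromosome 9:43584187-43587445, chromosome 15:77646477-77649094, chromosome 8:113332584-113335072 and chromosome 15:77632013-77634396. At the other end, 7 wide peaks had a single neighbour. The widest of these solitary ones was chromosome 13:63664342-63667509, at 3168 bases, whose neighbour lay 2050 bases to the right and whose nearest peak on the left was 10959 bases away. The others named by the same rule were chromosome 6:113025778-113028847 (3070 bases), chromosome 7:35438112-35440708 (2597 bases), chromosome 3:32262753-32265220 (2468 bases) and chromosome 19:36907728-36910074 (2347 bases). Among these 5 solitary peaks the one on chromosome 3 held a p63 peak, at 32263165-32263351. A wide peak thus need not belong to a larger acetylated domain.

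Acetylation beside wide peaks was often unequal on the left and right. The denser flank was covered over a median of 30.3% and the sparser flank over 8.53%. In 172 wide peaks (34.3%, interval 30.2 to 38.5%) the denser flank held at least 4 times the covered bases of the sparser, which is within counting error of the 37.7% (interval 35.9 to 39.4%) in the next class. Both flanks were at least 50% covered in 33 wide peaks, and both were under 5% covered in 34.

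Many wide peaks lay close to another wide peak. Of the 502, 121 (24.1%, Wilson 95% interval 20.6 to 28.03%) had another within 10 kb, against 2.32% of all H3K27ac peaks and 12.0% (interval 10.9 to 13.2%) of the next class with a wide peak that near. Within 100 kb the number was 206 (41.0%), against 9.57% of all H3K27ac peaks and 24.7% of the next class. Within 1000 kb it was 339 (67.5%), against 36.6% of all H3K27ac peaks and 53.6% of the next class. The 121 formed 52 runs, taken as chains of wide peaks at most 10 kb apart: 40 of 2 wide peaks, 8 of 3, 3 of 4 and 1 of 5. The runs spanned a median of 9.20 kb (4.44 to 24.0 kb), and H3K27ac peaks covered a median of 92.2% of that span (58.3 to 99.1%). Between neighbouring wide peaks of a run the gap had a median of 1666 bases (quartiles 269 and 3797), and 16 of the 69 gaps were under 200 bases.

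The run with the most wide peaks lies at chromosome 16:92609574-92633524. It holds 5, of 2417, 3029, 2296, 3003 and 2054 bases, with 13 narrower H3K27ac peaks between them, and 75.5% of its 24.0 kb is covered. Chromosome 8:87300947-87324188 holds 4 wide peaks of 3468, 5101, 3285 and 3100 bases in 23.2 kb, of which 81.2% is covered. The fourth of them stands apart, with its nearest H3K27ac peak 2376 bases away. At chromosome 15:85497667-85518297 there are 4 of 2299, 3646, 2258 and 3474 bases, with 10 narrower peaks, and 90.1% is covered. Chromosome 11:86390877-86402791 is the tightest of the runs of 4, with wide peaks of 3308, 2074, 2832 and 2024 bases in 11.9 kb and 94.5% covered. One of the peaks just under the width threshold, chromosome 11:86404497-86406492, follows 1705 bases after this run. Chromosome 15:101193048-101204008, of the 8 runs of 3 the one with the largest summed width of wide peaks, is an almost unbroken stretch of 3 wide peaks (2079, 5666 and 2995 bases) that fill 98.0% of its 10961 bases with no narrower peak between them. By windows of 1 Mb, chromosome 16:92000001-93000000 had the most wide peaks, 7, and 19 windows with 4 or more held 89 wide peaks in all.

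**Figure D2:**
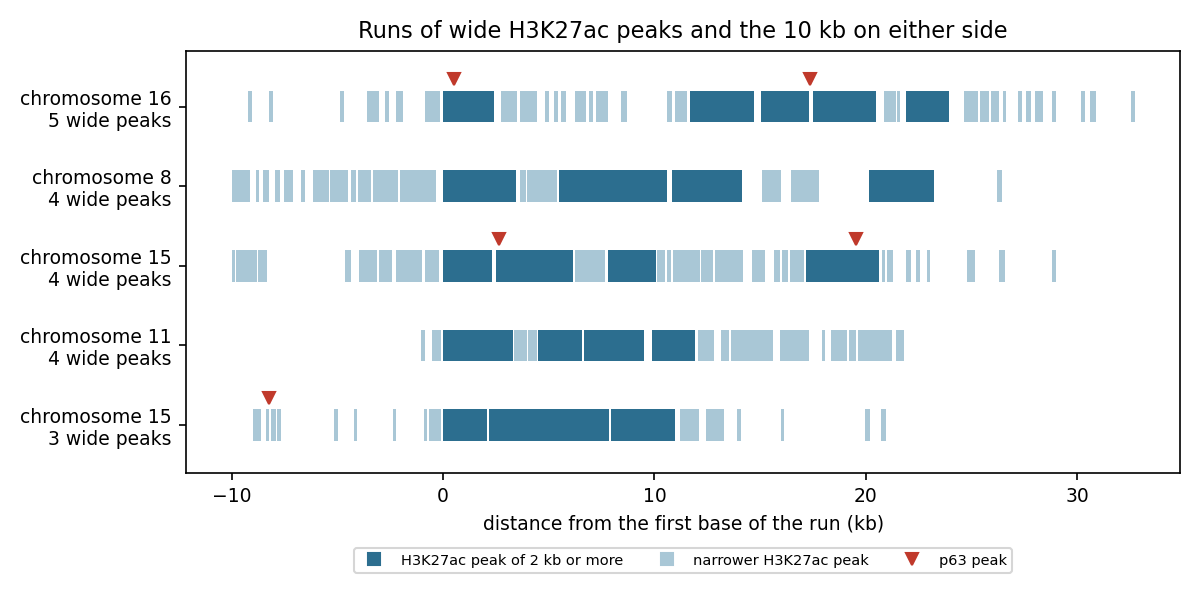
The 5 runs with the most wide H3K27ac peaks, ties taken by the summed width of the wide peaks, drawn from 10 kb before to 10 kb after each run; the x axis gives the distance from the first base of the run in kb. Dark bars are H3K27ac peaks of 2 kb or more, pale bars narrower ones and triangles p63 peaks; the uppermost run, on chromosome 16, has 5 wide peaks, and p63 triangles stand within 2 of the 5 runs.

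These runs differed in p63. The chromosome 16 run and the chromosome 15:85497667-85518297 run each held 2 p63 peaks within their span, each of them sharing bases with a different wide peak. The runs on chromosomes 8 and 11 had none in the span or within 10 kb. The run at chromosome 15:101193048-101204008 had 1 within 10 kb and none in the span. Over all 52 runs, 16 had p63 in the span and 25 (48.1%, Wilson 95% interval 35.1 to 61.3%) in the span or within 10 kb. A run offers a longer stretch than a single peak, and other stretches of such length were not counted. These run counts therefore have no comparison. Single wide peaks and those in runs held p63 about equally often: 19 of the 121 in runs (15.7%, interval 10.3 to 23.2%) and 60 of the 381 single ones (15.7%, interval 12.4 to 19.7%). A p63 peak outside but within 10 kb was found for 37 in runs (30.6%, interval 23.1 to 39.3%) and 69 single ones (18.1%, interval 14.6 to 22.3%). Of all H3K27ac peaks, 0.839% held p63 and 9.98% had it inside or within 10 kb. Median flank coverage was 47.4% for wide peaks in runs and 14.7% for single ones, and its part in these shares was not tested. The members of a run share their surroundings, so these are not independent cases.

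By p63, the wide peaks fell into 79 (15.7%) that overlapped a p63 peak by 1 base or more, against 0.839% of all H3K27ac peaks, 106 (21.1%, Wilson 95% interval 17.8 to 24.9%) with a p63 peak outside but within 10 kb, and 317 (63.1%, interval 58.8 to 67.3%) with none within 10 kb. Together, 185 (36.9%, interval 32.7 to 41.2%) had p63 inside or within 10 kb, against 9.98% of all H3K27ac peaks and 23.8% (interval 22.3 to 25.3%) of the next class. Of the 317 without p63 within 10 kb, 267 were more than 20 kb, 140 more than 100 kb and 6 more than 1000 kb from the nearest p63 peak. Other H3K27ac peaks were not counted at these longer distances, so these counts have no comparison. The farthest 3 were chromosome 7:112628908-112631025 (2201 kb), chromosome 9:88221416-88223693 (1860 kb) and chromosome 9:70055211-70057578 (1420 kb). Most wide acetylated peaks of these cells thus had no called p63 peak nearby, although depth is unknown and a site that was not called is not shown to be unbound.

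A wide peak offers more bases in which p63 can fall, so p63 was also counted per base. Wide peaks held 68 p63 midpoints, or 49.1 per Mb (exact Poisson 95% interval 38.1 to 62.2). Peaks of 1000 to under 2000 bases held 152, at a density of 38.1 per Mb (interval 32.2 to 44.6), and peaks under 1000 bases had 13.02 per Mb (interval 12.0 to 14.1). Wide peaks thus had 3.77 times the density of peaks under 1000 bases (exact 95% interval 2.89 to 4.86). Relative to the next class the ratio was 1.29 (interval 0.955 to 1.73), which includes 1. The share of peaks with p63 was 15.7% in wide peaks and 7.31% in the next class, so these classes stand farther apart by peak than by base.

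Among the wide peaks themselves, neither the share nor the density of p63 rose steadily with width. The share was 14.3% (interval 10.5 to 19.1%) of the 259 peaks from 2000 to under 2500 bases, 9.82% (interval 5.57 to 16.7%) of 112 up to 3000, 26.0% (interval 18.3 to 35.6%) of 96 up to 4000 and 17.1% (interval 8.10 to 32.7%) of the 35 of 4000 or more. Densities in the same order were 49.0, 36.3, 67.4 and 38.1 p63 midpoints per Mb. The widest of these groups had 0.778 times the density of the narrowest (exact 95% interval 0.287 to 1.82).

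The 79 wide peaks with p63 shared bases with 85 p63 peaks, 2.06% of the p63 list. A single p63 peak was found in 73 of them and 2 in each of the other 6. The pairs lay at chromosome 12:8785182-8790962, chromosome 4:150243547-150247579 (4033 bases, p63 at 150245444-150245596 and 150246050-150246287), chromosome 14:55193183-55197051 (3869 bases, p63 at 55193124-55193420 and 55194505-55194794), chromosome 17:31882710-31885749 (3040 bases, p63 at 31883834-31884041 and 31885259-31885385), chromosome 7:26059368-26062263 (2896 bases, p63 at 26060108-26060227 and 26060741-26061263) and chromosome 12:114164320-114166687 (2368 bases, p63 at 114165716-114165860 and 114166624-114166882). In the pairs on chromosome 14 and at chromosome 12:114164320-114166687, 1 p63 peak reached past the edge of the wide peak. The widest p63 peak found in a wide peak, 523 bases, is in the chromosome 7 pair. Among the widest peaks with p63 were also chromosome 14:55049375-55053852 (4478 bases, p63 at 55052912-55053114), chromosome 7:19945217-19949342 (4126 bases, p63 at 19949239-19949499) and chromosome 2:32734037-32738090 (4054 bases, p63 at 32734128-32734398). In these last 2 the p63 peak lay at the margin.

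Inside wide peaks, p63 showed no clear preference for the middle. Of the 85 p63 peaks, 61 lay wholly within a wide peak and 24 straddled an edge. Of the 68 with their midpoint inside, 38 (55.9%, Wilson 95% interval 44.1 to 67.1%) lay in the middle 50% of the peak. The distance from midpoint to the nearer edge had a median of 783 bases (quartiles 437 and 1199.5).

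In the first 100 bases outside the edges, p63 midpoints were denser than over wide peaks as a whole (49.1 per Mb). In the first 100 bases beyond an edge there were 19 p63 midpoints, or 189 per Mb (exact Poisson 95% interval 114 to 296), and in the next 100 bases 8, or 79.7 per Mb (interval 34.4 to 157). The last 100 bases inside an edge also held 79.7 per Mb (interval 34.4 to 157). Each 100-base step from 200 to 500 bases out held 29.9 per Mb (interval 6.16 to 87.3). Over the first 500 bases the density was 71.7 per Mb (36 midpoints, interval 50.2 to 99.3), which fell off to 13.9 per Mb (7 midpoints, interval 5.61 to 28.7) from 500 to 1000 bases out. The ratio of these was 5.14 (exact 95% interval 2.26 to 13.7). The next class showed the same shape, with 118 per Mb (interval 92.1 to 149) in its first 100 bases and 54.5 and 13.9 per Mb over the same pair of 500-base steps. A midpoint near 2 edges was counted from both. Most of the midpoints in the first 100 bases beyond wide peaks belong to p63 peaks that also share bases with the wide peak. Of the 85 such p63 peaks, 68 had the midpoint inside, and the midpoints of the rest lay within 100 bases outside. The latter p63 peaks were also counted above as inside wide peaks.

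**Figure D3:**
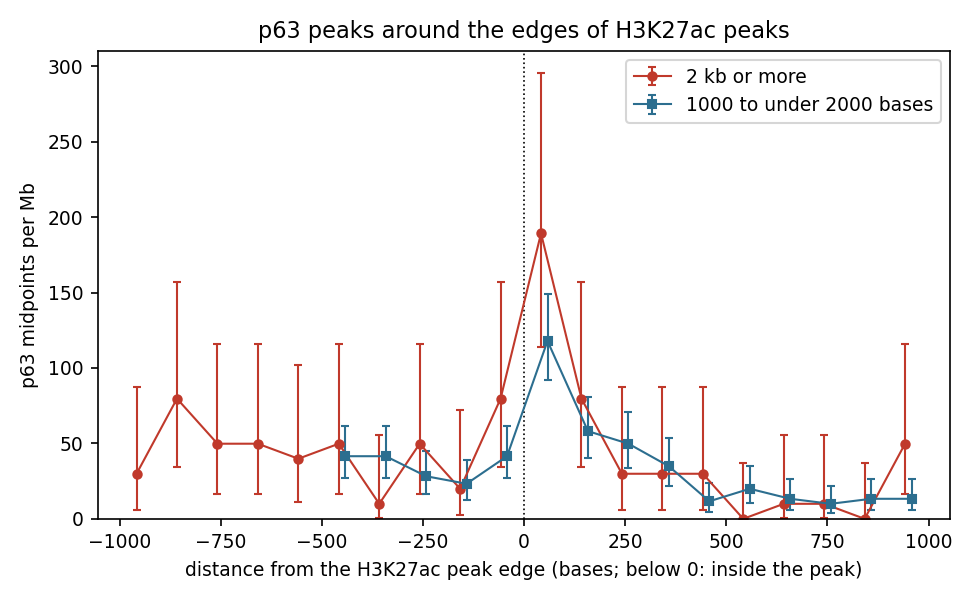
p63 midpoints per Mb by distance from the edge of an H3K27ac peak, in steps of 100 bases, for wide peaks (2 kb or more) and for peaks of 1000 to under 2000 bases; negative distances are inside the peak and bars are exact Poisson 95% intervals. Both curves are highest in the first 100 bases outside the edge, at 189 and 118 per Mb.

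Most of the p63 sites beside an edge lay in the short interruptions described above. Of the 35 distinct p63 midpoints within 500 bases outside a wide peak, 24 fell in the gap next to it and 11 in another H3K27ac peak. Some of these p63 peaks also shared bases with the wide peak and were counted above as inside it. These 24 gaps had a median length of 162 bases (quartiles 110 and 288). All gaps under 500 bases that border a wide peak, 681 in number and 129 kb in length, held 22 p63 midpoints, or 171 per Mb (exact Poisson 95% interval 107 to 259), which is 3.48 times the density inside wide peaks (exact 95% interval 2.05 to 5.70). Gaps of this kind beside the next class held 138 per Mb (interval 111 to 170), a value inside the interval for the wide peaks. All gaps under 500 bases between neighbouring H3K27ac peaks of the whole list, those beside wide peaks included, held 81.8 p63 midpoints per Mb (584 midpoints, interval 75.3 to 88.7), which lies below both of these intervals.

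Farther out, p63 remained present around wide peaks. Of the 106 wide peaks with p63 outside but within 10 kb, 24 had it within 1000 bases and 69 within 5000 bases. In all 125 p63 peaks lay within 10 kb of a wide peak without touching one, and 91 of them (72.8%, Wilson 95% interval 64.4 to 79.8%) shared a base with some other H3K27ac peak, against 32.2% (interval 30.8 to 33.7%) of the 3920 p63 peaks elsewhere. Acetylation around wide peaks was denser than around H3K27ac peaks in general, and its part in this share was not tested. By width, p63 peaks that met a wide peak measured 201 bases at the median (quartiles 154 and 251), those within 10 kb 188 (quartiles 144 and 238) and those elsewhere 181 (quartiles 144 and 220).

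Wide peaks with p63 outside but within 10 kb had denser surroundings than those with none, and wide peaks with p63 inside lay in between. Those with p63 inside had a median of 11 other H3K27ac peaks within 10 kb (95% interval of the median 9 to 12) and those with p63 within 10 kb 12 (interval 11 to 14), against 8 (interval 8 to 9) for those without. Flank coverage was 25.9% (interval 16.03 to 33.2%) with p63 inside and 34.9% (interval 28.05 to 40.2%) with p63 within 10 kb, against 16.2% (interval 13.2 to 18.97%) without. The difference between p63 inside and none was 9.75 percentage points, with an interval of -0.527 to 17.6 that includes 0. Whether the interval included 0 depended on the distance and the width threshold, as given in the closing section. Median widths were 2569 bases with p63 inside and 2596 with p63 within 10 kb, against 2417 without. The same order held without the runs. Among the 381 single wide peaks, the medians of flank coverage were 15.6% with p63 inside (interval 13.9 to 25.1%) and 24.2% with p63 within 10 kb (interval 18.3 to 29.0%), against 11.4% without (interval 9.90 to 13.2%). The next class showed the same order, so it is not particular to wide peaks. Its median flank coverage was 18.0% with p63 inside (interval 14.95 to 21.1%) and 19.8% with p63 within 10 kb (interval 17.5 to 22.6%). Without p63 it was 8.53% (interval 8.16 to 8.92%). Median numbers of neighbours there were 9, 10 and 6. A p63 peak was sought in the same 20 kb in which coverage was measured.

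**Figure D4:**
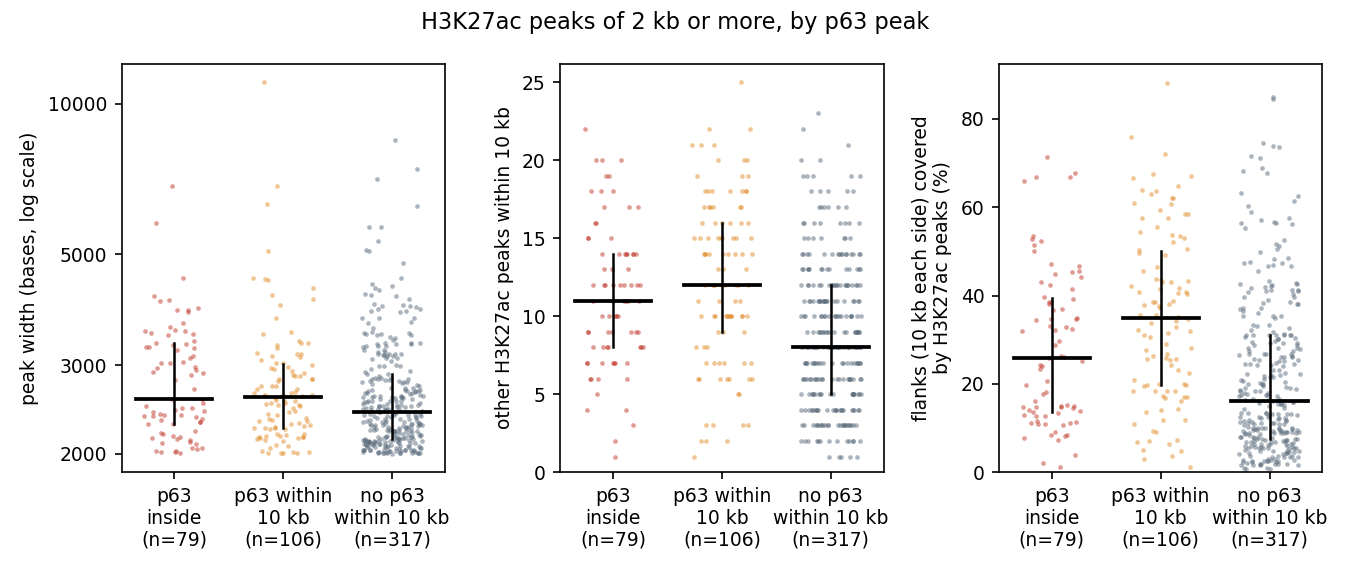
Width on a log scale, number of other H3K27ac peaks within 10 kb and coverage of the 10 kb flanks for each of the 502 wide peaks, by p63; points are peaks, horizontal lines medians and vertical lines quartiles. Median flank coverage is 25.9% with p63 inside and 34.9% with p63 within 10 kb, against 16.2% with none.

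Read the other way, p63 was least frequent at wide peaks with bare flanks. Of the 133 wide peaks with under 10% of their flanks covered, 9 (6.77%, Wilson 95% interval 3.60 to 12.4%) held p63 and 20 (15.0%, interval 9.95 to 22.1%) had it inside or within 10 kb. Of the 113 with 10 to under 20% covered, 25 (22.1%, interval 15.5 to 30.6%) held p63, and of the 143 with 20 to under 40%, 26 (18.2%, interval 12.7 to 25.3%). With 40% or more covered, 19 of 113 held p63 (16.8%, interval 11.04 to 24.8%) and 62 (54.9%, interval 45.7 to 63.7%) had it inside or within 10 kb. In the next class the share that held p63 was 4.17% under 10% coverage, 8.09% from 10 to under 20%, 13.4% from 20 to under 40% and 10.1% at 40% or more. By peak, these lie below the interval of the wide peaks from 10 to under 20% and at 40% or more. At the other steps they lie inside it. By base, wide peaks held 30.4, 77.5, 43.8 and 48.7 p63 midpoints per Mb at these steps in turn. The next class held 25.2, 46.1, 59.9 and 39.9 per Mb. By base, the next class lies below the interval of the wide peaks (49.1 to 116) only from 10 to under 20%, and inside it elsewhere. The share of the next class with p63 inside or within 10 kb was 11.3% under 10% coverage, 27.8% from 10 to under 20%, 39.1% from 20 to under 40% and 49.5% at 40% or more. This share lies inside the interval of the wide peaks at each step but that of 10 to under 20%, where wide peaks had 38.9% (interval 30.5 to 48.2%).

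Step by step outward, H3K27ac coverage beside wide peaks was 39.0% in the first 500 bases, 47.1% from 500 to 1000 bases and 15.7% from 9.5 to 10 kb. The first step includes the gap beside each peak, which is never shorter than 52 bases. Peaks of 1000 to under 2000 bases had 29.9, 33.4 and 10.2% at the same distances.

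**Figure D5:**
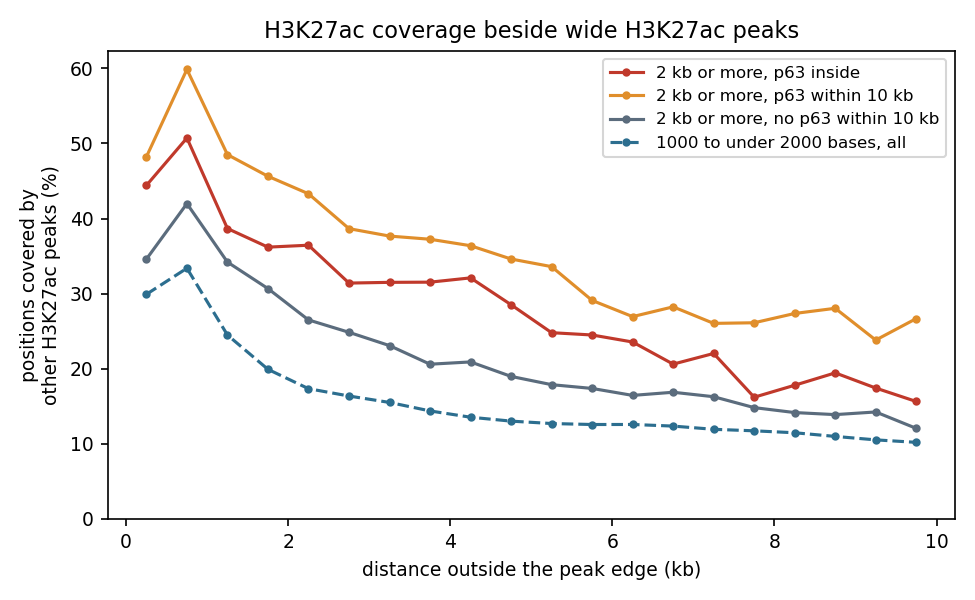
Share of positions covered by other H3K27ac peaks against distance outside the edge in kb, in steps of 500 bases on both sides together, for wide peaks by p63 and for all peaks of 1000 to under 2000 bases. In every group coverage is lower at 9.5 to 10 kb (15.7% for all wide peaks together) than next to the peak, and the group with p63 within 10 kb is highest at every step.

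By chromosome, p63 was found inside 6 of the 11 wide peaks on chromosome 14, 10 of 55 on chromosome 11 and 9 of 47 on chromosome 7. It was found inside 0 of 26 on chromosome 13 and 0 of 22 on chromosome 8, where 8 and 3 had p63 within 10 kb. A count of 0 allows a share of up to 11.5% for chromosome 13 and 13.6% for chromosome 8. Over all chromosomes, p63 was inside 15.7% of wide peaks and 0.839% of all H3K27ac peaks. The share of all H3K27ac peaks with p63 is not given by chromosome, so these counts cannot be set against it. The number of wide peaks per chromosome is small and these chromosomes were picked after their counts were seen.

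In the deposited order of the list, wide peaks with p63 inside stood at a median row of 1946 (95% interval of the median 1066 to 2877) and those with p63 within 10 kb at row 1397.5 (interval 1226 to 2226), against row 1385 (interval 1098 to 1734) for those with none. These intervals overlap.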

How the data were processed

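ChIP and input libraries came from primary mouse salivary gland epithelial progenitor cells. A kit and a robot were used for the immunoprecipitation, per the labels' protocols. The submitters' processing notes name the aligner Bowtie 1.1.1, the peak caller MACS2 2.1.0 and the build mm9; settings and filters are not given in the sources. Both deposited lists have 3 columns (chromosome, start, end). Peaks were thus called per library and hold no score or depth. The build was checked: 10 wide peaks on chromosome 7 and 2 on chromosome 1 are beyond every gene of the GRCm38.p6 table, so positions were read as mm9 and that table was not used further.

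Distances run edge to edge, overlap needs 1 shared base, and midpoints give densities. Shares carry Wilson, densities exact Poisson, ratios exact conditional and medians order-statistic intervals, all at 95%, which cover counting error and take peaks as independent. The interval of the difference of medians combines those of both medians. No p-values are given: each group is 1 library and regions are not replicates. The limit for a count of 0 is 3 counts. Members, lists and comparisons were chosen with earlier results of these data known. Named regions follow a rule: the 10 widest, the 5 with most p63 peaks inside, the 5 widest with p63, the 5 runs with most members (ties by summed width), the 5 with most and the 5 widest with fewest neighbours, and the 5 on either side of the threshold; others were named after their values were seen. Software was matplotlib 3.10.9, scipy 1.17.1, pandas 2.3.3, numpy 2.4.6 and Python 3.11.15, and counting was tested on simulated data. Alternatives covered the width threshold, joined peaks, distances, overlap, chromosome X and shorter lists.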

Additional observations from a re-analysis of the deposited data

How the results depend on the processing

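The depth of the libraries is unknown, so the number and width of peaks cannot be separated from it. Of 58 alternatives, all of them on values without a test, 29 stayed within the counting interval of the reported value and 29 did not. For the number of wide peaks, within 1.5 times was taken as the interval. None changed a sign, but only the difference in flank coverage could have done so, as the other values cannot be negative. The number of wide peaks, 502, was 1254 at 1500 bases or more, 131 at 3000 or more, and 1516 and 5652 when H3K27ac peaks at most 200 and 1000 bases apart were joined first. The share with p63 inside, 15.7%, was 12.5% by p63 midpoint, 11.4% with the whole p63 peak inside, 10.2% with the 2065 widest p63 peaks, 11.7% at 1500 bases and 23.7% at 3000. The share with p63 inside or within 10 kb, 36.9%, was 29.5% at 5 kb, 46.8% at 20 kb, 24.9% with the widest p63 peaks, 30.1% at 1500 bases, 45.0% at 3000, and 32.6% and 24.5% with peaks joined over 200 and 1000 bases. The share with another wide peak within 10 kb, 24.1%, was 19.5% at 5 kb, 29.7% at 20 kb, 31.3% at 1500 bases, 19.8% at 3000 and 31.7% with peaks joined over 1000 bases. The median number of neighbours, 10, was 6 at 5 kb, 16 at 20 kb, 8 at 1500 bases, 11 at 3000, 6 and 3 with peaks joined, and 7 with the first 91878 rows of the list. The p63 density, 49.1 per Mb, was 26.7 with the widest p63 peaks. Fewer p63 peaks, other distances and other widths change these values by construction. Of the values tried with fewer rows, only the number of neighbours could change. The last wide peak is at row 23067, so every wide peak was kept and the other values were fixed in advance. The p63 density under other widths or joined peaks (42.7 to 56.8 per Mb), the difference in flank coverage (7.17 to 11.6 percentage points) and the share of p63 midpoints in the middle 50% (54.1 to 57.6%) stayed within their intervals. No paired analysis was possible because there is a single library per group.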
